A study of Mus musculus with 6 samples.

Results

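The large subunit of the ribosome is built in the nucleolus, around a precursor ribosomal RNA, by assembly factors that bind the particle for a time and then leave it. A list of 48 such genes was followed in mouse T-cell acute lymphoblastic leukaemia (T-ALL). Of these, 46 were measured among the 18193 genes of the array, each by its brightest probe set that names a single gene. Npm3 and Mrto4 had no probe set naming them alone in the platform annotation and are not analysed here. The leukaemias carried Notch1ΔE, a NOTCH1 receptor lacking its extracellular part, together with the mycGFP allele, whose fluorescence follows the MYC protein, so both groups share both alleles. MycGFP positive cells were set against MycGFP negative cells, both sorted by mCherry and GFP from CD25+ splenocytes of 12-week-old C57BL/6 mice taken 4 weeks after transplantation into congenic recipients. There were 3 arrays of each kind, with numbers 1 to 3, and the series describes 3 independent leukaemias. By the labels the groups differ in the GFP gate alone. They come from the same kind of leukaemia, and normal T cells are not part of the comparison.

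Assembly starts on the RNA polymerase I transcript and proceeds through early nucleolar particles, removal of the internal spacers, remodelling by AAA ATPases in the nucleoplasm, export and last steps in the cytoplasm. MYC is a transcription factor that binds the E-box CACGTG, and genes of ribosome assembly are among those widely described as its targets. The comparison asks how far the transcripts of this pathway differ between leukaemia cells sorted by their MYC protein.

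Promoter windows of RefSeq (build GRCm38.p6), from 250 bases before to 50 bases after a gene's start, were found for 41 of the 48 genes and searched for CACGTG, which reads the same on both strands. It occurred in 8 of the 41, or 19.5%: Nmd3, Mdn1, Sdad1, Nop2, Grwd1, Pes1, Mybbp1a and Nle1. In the same table it occurred at 10.2% of the 14452 measured genes with a window and at 8.09% of all 27025 genes. The median GC content of the windows was 59.5% for the assembly factors and 58.3% for measured genes. Among genes that passed the test below, 4 of 16 with a window held the motif, against 4 of 23 that did not pass. All 8 genes with the motif had log2 differences above 0, from 0.79 for Pes1 to 1.86 for Grwd1, as did 41 of the 46 measured genes. The windows of 5 genes described below are shown 5′ to 3′ with the motif in capitals, followed by that of Gnl3, which had the smallest adjusted p of the list and no such letters in its window.
Nop2 (chr6:125131633-125131932, plus strand): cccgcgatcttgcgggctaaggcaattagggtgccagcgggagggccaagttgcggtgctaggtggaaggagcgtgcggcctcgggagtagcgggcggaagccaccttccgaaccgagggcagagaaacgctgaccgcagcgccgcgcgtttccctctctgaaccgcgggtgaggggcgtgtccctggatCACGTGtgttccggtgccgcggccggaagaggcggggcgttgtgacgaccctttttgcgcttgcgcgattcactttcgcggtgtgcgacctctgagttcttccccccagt
Grwd1 (chr7:45830740-45831039, minus strand): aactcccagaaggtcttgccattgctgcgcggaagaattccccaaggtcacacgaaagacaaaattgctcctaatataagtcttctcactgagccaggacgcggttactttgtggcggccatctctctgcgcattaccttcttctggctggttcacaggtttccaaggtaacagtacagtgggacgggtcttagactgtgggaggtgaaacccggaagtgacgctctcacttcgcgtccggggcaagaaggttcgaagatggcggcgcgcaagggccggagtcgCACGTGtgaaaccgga
Nmd3 (chr3:69721805-69722104, plus strand): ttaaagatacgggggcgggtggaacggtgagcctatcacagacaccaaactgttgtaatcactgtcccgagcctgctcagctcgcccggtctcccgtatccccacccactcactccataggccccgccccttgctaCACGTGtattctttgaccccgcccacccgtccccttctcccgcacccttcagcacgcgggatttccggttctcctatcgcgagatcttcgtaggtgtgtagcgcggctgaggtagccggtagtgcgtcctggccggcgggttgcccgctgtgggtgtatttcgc
Pes1 (chr11:3963725-3964024, plus strand): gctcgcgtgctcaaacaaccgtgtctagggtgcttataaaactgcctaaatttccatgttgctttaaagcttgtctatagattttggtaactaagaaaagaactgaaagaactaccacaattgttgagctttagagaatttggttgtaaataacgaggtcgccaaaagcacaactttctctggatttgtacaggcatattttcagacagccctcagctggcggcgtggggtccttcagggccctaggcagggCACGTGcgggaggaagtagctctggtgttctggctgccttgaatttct
Mybbp1a (chr11:72441077-72441376, plus strand): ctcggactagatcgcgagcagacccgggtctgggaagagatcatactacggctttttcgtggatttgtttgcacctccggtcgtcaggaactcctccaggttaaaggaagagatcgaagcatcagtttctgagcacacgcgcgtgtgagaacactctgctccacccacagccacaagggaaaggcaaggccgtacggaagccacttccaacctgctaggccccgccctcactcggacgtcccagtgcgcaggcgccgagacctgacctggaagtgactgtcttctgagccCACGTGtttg
Gnl3 (chr14:31019082-31019381, minus strand): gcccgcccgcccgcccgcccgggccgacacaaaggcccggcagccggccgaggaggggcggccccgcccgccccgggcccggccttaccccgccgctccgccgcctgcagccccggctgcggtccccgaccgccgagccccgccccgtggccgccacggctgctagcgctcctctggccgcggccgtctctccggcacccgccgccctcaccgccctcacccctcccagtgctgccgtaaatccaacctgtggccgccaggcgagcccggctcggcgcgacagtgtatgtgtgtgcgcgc
The first base of the motif lay 60 bases before the start of Nop2 and 114 bases before that of Nmd3. It was base 35 of Grwd1, base 3 of Pes1 and base 41 of Mybbp1a, counted from 1 at the start of the gene. A match of letters is a description and not a binding site.

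Of the 46 measured assembly factors, 18 were higher in MycGFP positive cells and none was lower (limma, adjusted p under 0.05, two-sided). Over all 18193 genes, 4.62% were called higher and 1.51% lower. The 18 were Nop2, Gnl3, Grwd1, Ddx27, Pa2g4, Sdad1, Rrp1b, Nmd3, Ppan, Rsl1d1, Ddx51, Nop16, Rrs1, Rrp15, Ddx56, Bop1, Noc3l and Las1l, and their rises were 1.80-fold to 4.62-fold. At an unadjusted p under 0.05, 33 were higher and 2, Wdr12 and Ddx24, lower, against 14.7% and 7.35% of all genes. The log2 difference, MycGFP positive minus negative, was above 0 for 41 and below 0 for 5. Its median was 0.95, beside 0.01 over all genes, and it reached 1 for 21 of the 46 (45.7%), beside 7.9% of all genes. The 3 positive values exceeded the 3 negative ones without overlap for 33 genes and lay below them for 2, separations found in 17% and 11.2% of all genes. In the remaining 11 genes the groups overlapped. These are values of bulk RNA, in which fewer cells of a type and less RNA per cell cannot be told apart.

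**Figure D1:**
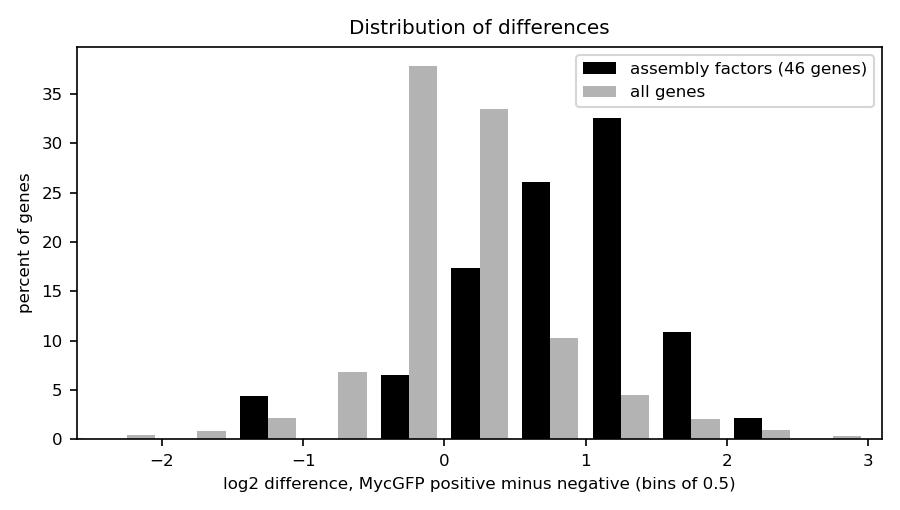
Log2 difference of MycGFP positive minus negative arrays in bins of 0.5 (x axis) as the percent of genes in each bin (y axis), for the 46 assembly factors (black) and all 18193 genes (grey). The fullest bin of the assembly factors is 1 to 1.5, with 32.6% of them, where 4.46% of all genes lie.

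Which array was left out mattered for the count. When positive array 2 was removed, limma called no assembly factor and no gene at all, the smallest adjusted p being 0.0591. Without positive array 3, Gnl3 and Grwd1 were called, against 0.572% of all genes higher and 0.143% lower. Without positive array 1 there were 6 calls, against 0.956% and 0.302% of all genes. Without negative array 2 there were 5, among them 4 of the 18, against 0.72% and 0.203%. Without negative array 1 there were 14, against 4.74% and 0.967%, and without negative array 3 there were 12, against 3.22% and 1.31%. Every call among the assembly factors was towards higher levels in MycGFP positive cells. Other treatments of the same 6 arrays gave 11 to 21 calls. With the array number as a block 16 assembly factors were higher, against 5.75% of all genes higher and 1.95% lower. Centring each array on its median gave 11, all among the 18, against 2.76% and 2.09%. It shifted the median difference over all genes to -0.14 on the log2 scale and that of the assembly factors to 0.80, and brought the share of higher calls over all genes to 56.9%, beside 75.3% without it. The mean of a gene's probe sets gave 19, against 5.59% and 2.16%, and a trended and robust variance gave 13, against 3.86% and 1.3%. Array weights gave 20, against 5.88% and 1.92%. Leaving out probe sets with names ending in _x_at gave 18, against 4.73% and 1.55%. Those ending in _s_at stayed in, among them the probe sets of Grwd1 and Pa2g4. Testing only genes above the median level gave 21, against 11.2% and 3.61%. None of these treatments called an assembly factor lower. Gnl3 was called in 12 of the 13 alternatives, and Nop2, Ddx27 and Grwd1 in 11 each.

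**Figure D2:**
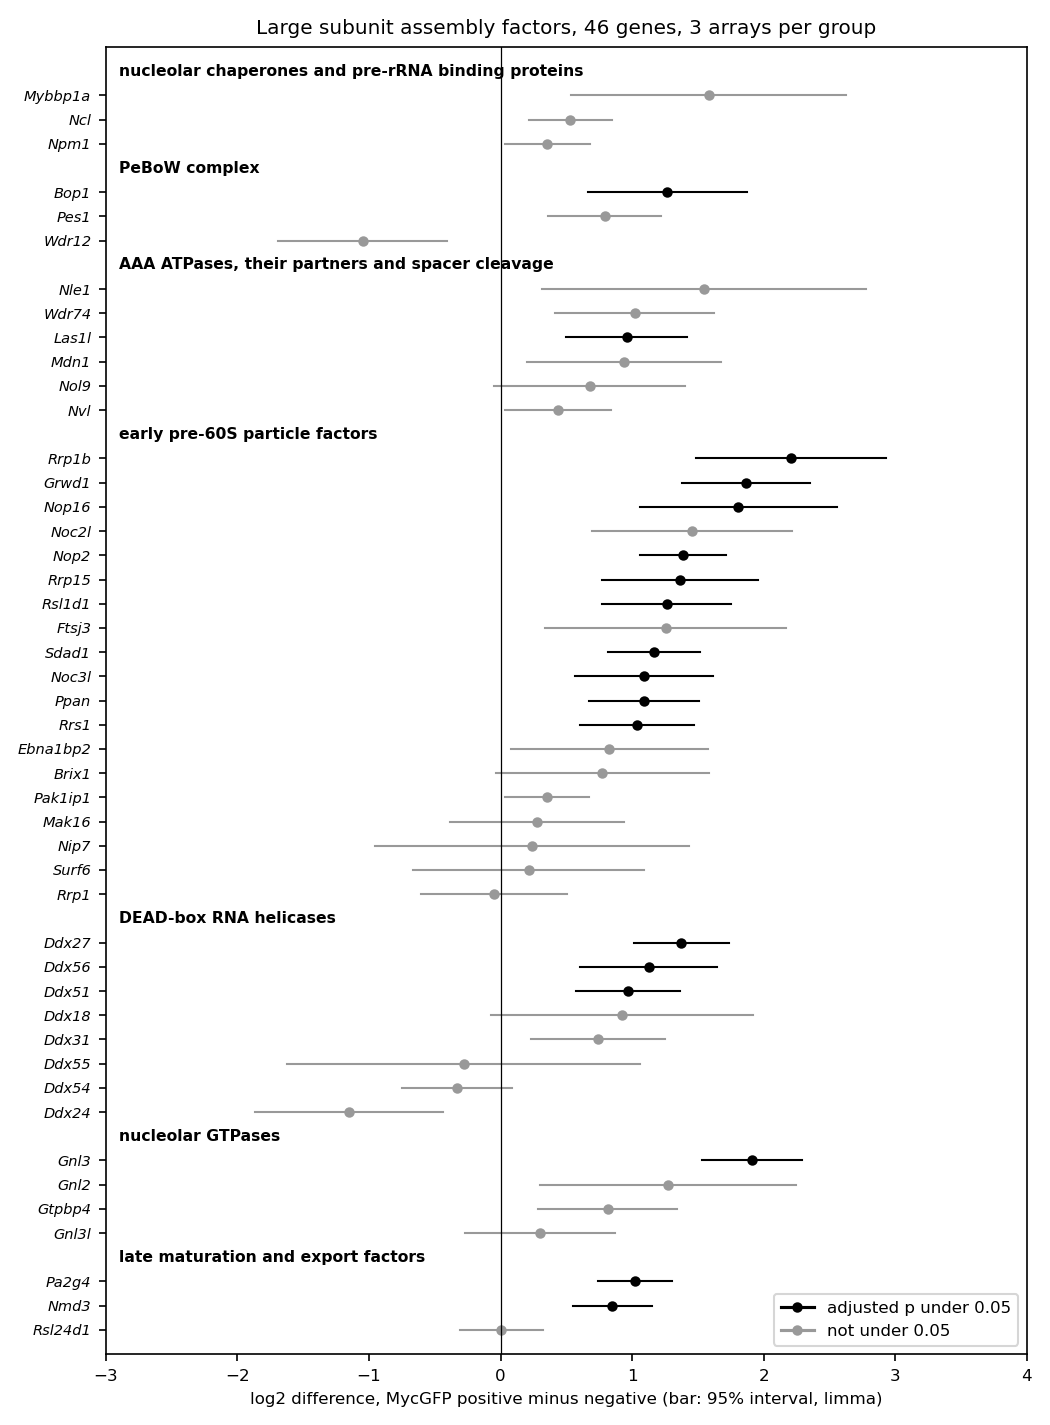
Log2 difference of MycGFP positive minus negative arrays (x axis) for each of 46 assembly factors, grouped by role, with limma's 95% interval as a bar and 3 arrays per group. Black marks the 18 genes with an adjusted p under 0.05, all to the right of 0, and Wdr12 and Ddx24 lie farthest to the left.

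The early nucleolar factors, the largest role by number of genes, held 10 of the 18 calls. That was 10 of 19 measured genes, against 4.62% of all genes called higher. Nop2, which methylates cytosine in ribosomal RNA, had intensities of 459, 428 and 452 on the positive arrays, against 162, 158 and 194 on the negative arrays. The groups lay far apart beside the spread within each. Nop2 rose 2.61-fold (log2 difference 1.39, SE 0.14, adjusted p = 0.0106). Grwd1, a WD-repeat protein whose yeast relative escorts a ribosomal protein, had intensities of 1684, 1397 and 1113 on the positive arrays, against 371, 333 and 440.0 on the negative arrays. Every positive value exceeded the highest negative one by a wide margin, and Grwd1 rose 3.64-fold (log2 difference 1.86, SE 0.20, adjusted p = 0.013). The other bright probe sets of Grwd1 also kept the groups apart. One was 4.55-fold higher and passed over probe sets (adjusted p = 0.0128), and the other was 1.90-fold higher and did not (adjusted p = 0.0645). Sdad1, whose yeast counterpart Sda1 acts in large subunit maturation and export, rose 2.25-fold (adjusted p = 0.0165). Rrp1b had the largest rise of the list, 4.62-fold (adjusted p = 0.0186), with 3095, 4203 and 3269 on the positive arrays, against 573, 647 and 1161 on the negative arrays. Its negative array 3 lay above the other negative arrays and still far under the positive ones. The other bright probe set of Rrp1b rose 2.60-fold without overlap (adjusted p = 0.0138 over probe sets). The size of its rise thus depended on the probe set.

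Nop16, a nucleolar protein, rose 3.50-fold and Rrp15, needed for precursor processing, 2.58-fold. Rsl1d1 rose 2.40-fold, Noc3l 2.13-fold, Ppan 2.13-fold and Rrs1, which in yeast helps to bring the particle of the smallest ribosomal RNA into the subunit, 2.05-fold. The other bright probe set of Rrs1 rose 3.34-fold (adjusted p = 0.0143 over probe sets). With the array number as a block, Nop16 and Noc3l no longer passed (adjusted p = 0.0522 and 0.0587). Noc2l just missed the threshold at 2.75-fold higher (adjusted p = 0.0509) and passed under the block (adjusted p = 0.0281). Its other bright probe set had the opposite sign and overlapping groups (log2 difference -0.28, adjusted p = 0.677 over probe sets). The others that did not pass were Ftsj3, Ebna1bp2, Brix1, Pak1ip1, Mak16, Nip7, Surf6 and Rrp1, at log2 differences of -0.05 to 1.25. Rrp1, the relative of Rrp1b, had 2132, 2636 and 2667 on the positive arrays, against 3428, 2003 and 2427 on the negative arrays, so the groups overlapped (log2 difference -0.05, 95% interval -0.61 to 0.51). The interval of Rrp1b, 1.49 to 2.93, lay wholly above it. Surf6 had 473, 1315 and 747 on the positive arrays, against 652, 683 and 666 on the negative arrays, and the negative arrays were close together while positive array 2 lay far above the other positive arrays.

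The PeBoW complex, named after its 3 subunits Pes1, Bop1 and Wdr12, is needed to process the spacers of the precursor, and its subunits had differences of both signs. Bop1 had 486, 651 and 392 on the positive arrays, against 166, 209.7 and 254 on the negative arrays, with no overlap, and rose 2.41-fold (log2 difference 1.27, SE 0.25, adjusted p = 0.0415). Under the block its adjusted p was 0.0587. Pes1 had 1134, 900.0 and 1026 on the positive arrays, against 692, 491 and 593 on the negative arrays, also without overlap, at 1.73-fold higher. It did not pass over all genes (adjusted p = 0.056) and passed under the block (adjusted p = 0.0425). Wdr12 had 833, 1489 and 1512 on the positive arrays, against 2568, 2275 and 2838 on the negative arrays, so that all positive values lay below all negative ones. Its log2 difference was -1.05 (SE 0.26, adjusted p = 0.0751), which did not pass, and its second bright probe set had 1238, 1052 and 1096 on the positive arrays, against 1268, 1395 and 939.9 on the negative arrays. On that probe set the groups overlapped, and the difference was -0.07 on the log2 scale (adjusted p = 0.879, over 34945 probe sets).

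Within arrays, log2 Wdr12 minus log2 Bop1 was lower on positive than on negative arrays by either probe set. The difference between the groups was -2.32 with the brighter Wdr12 probe set and -1.34 with the second, and the groups did not overlap in either case. Against Pes1 the differences were -1.84 and -0.87, again without overlap. With the brighter probe set this separation was fixed beforehand, since Wdr12 and its partners each separated the groups, in opposite directions. The second differed by -0.07 alone, so its ratios mainly restate Bop1 and Pes1. The ratios share values and are not independent results. Each ratio had p = 0.1 in the exact permutation test over arrays (two-sided, n = 3 per group). That is the smallest p this design allows, so none can pass 0.05. Such a ratio describes the subunits relative to each other and not which of them changed.

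Of 8 DEAD-box helicases, which unwind or release RNA during assembly, 3 were higher and none was lower, against 4.62% and 1.51% of all genes. Ddx27, which associates with the PeBoW complex, had 604, 539 and 506 on the positive arrays, against 208, 189.6 and 239.7 on the negative arrays. It rose 2.59-fold (log2 difference 1.37, SE 0.15, adjusted p = 0.013), with groups far apart. Ddx51 had 121, 120.5 and 88.8 on the positive arrays, against 54.6, 55.0 and 57.3 on the negative arrays and rose 1.96-fold (adjusted p = 0.0295). The median over genes was 50.8 to 51.4 on the negative arrays, so Ddx51 lay close to it there. Ddx56, a nucleolar helicase, rose 2.18-fold (adjusted p = 0.0387). Ddx31 was 1.67-fold higher without passing (adjusted p = 0.0995).

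Ddx18, whose yeast counterpart is Has1, had 1753, 1833 and 1557 on the positive arrays, against 591, 1748 and 707 on the negative arrays. Negative array 2 stood with the positive arrays, and its second bright probe set did likewise, at 1366 on negative array 2 and 419.7 and 470.2 on negative arrays 1 and 3. Ddx18 did not pass (adjusted p = 0.258), and without negative array 2 it did (log2 difference 1.40, adjusted p = 0.0492). Ddx24 had 692, 516 and 494 on the positive arrays, against 1637, 826 and 1436 on the negative arrays, all positive values below all negative ones, at a log2 difference of -1.15 (adjusted p = 0.0778). Its other bright probe set ran the other way, with 1080.2, 591 and 487 on the positive arrays, against 631, 440.4 and 369 on the negative arrays and overlapping groups (log2 difference 0.53, adjusted p = 0.451 over probe sets). The data on Ddx24 thus depend on the probe set. Ddx54 had 1706, 1840.2 and 2034 on the positive arrays, against 2848, 2027 and 2204 on the negative arrays, overlapping by 1 negative value (log2 difference -0.33, adjusted p = 0.338). Ddx55 had 89.8, 91.4 and 83.0 on the positive arrays, against 87.9, 53.7 and 259 on the negative arrays, and its difference of -0.28 on the log2 scale (adjusted p = 0.837) rested on negative array 3, without which it was 0.36.

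Gnl3 encodes nucleostemin, a nucleolar GTPase of proliferating and stem cells, and stood out among the 4 GTPases. Its intensities were 2411, 2537 and 2670.1 on the positive arrays, against 567, 696 and 774 on the negative arrays. They averaged 2539 ± 129.5 in MycGFP positive cells and 679 ± 105 in MycGFP negative cells (SD, n = 3 each). The rise was 3.77-fold (log2 difference 1.91, SE 0.16, adjusted p = 0.0103). Its relative Gnl3l had 2035, 2225 and 2182 on the positive arrays, against 1242, 1882 and 2258 on the negative arrays, where negative array 3 reached the positive level, and was not called (log2 difference 0.30, 95% interval -0.27 to 0.87). The interval of Gnl3, 1.53 to 2.29, did not reach that of Gnl3l. Gnl2, whose yeast counterpart is Nog2, had 1439, 1307 and 1503 on the positive arrays, against 304, 754 and 867 on the negative arrays, without overlap and with negative array 1 far below the rest (log2 difference 1.28, adjusted p = 0.127). Gtpbp4, whose yeast counterpart is Nog1, was 1.76-fold higher without passing on its brightest probe set (adjusted p = 0.0861), with 1268, 1207 and 1251 on the positive arrays, against 763, 888 and 517 on the negative arrays.

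Among nucleolar chaperones and RNA-binding proteins, 3 of 4 were measured and none passed. On the brightest probe sets all 3 had higher positive values without overlap, a separation found in 17% of all genes. Ncl, nucleolin, which binds the precursor RNA, had 4828, 5034 and 5064 on the positive arrays, against 3714, 3591 and 3059 on the negative arrays. Its difference was small, 1.44-fold higher (log2 difference 0.53, SE 0.13, adjusted p = 0.0717). No other bright probe set of Ncl passed. Those at log2 differences of 0.38 and 0.76 kept the groups apart, and those at 0.35 and 0.18 overlapped. Npm1, nucleophosmin, an abundant chaperone of the nucleolus, had 11363, 11981 and 13291 on the positive arrays, against 9433, 8862 and 10328 on the negative arrays and was 1.28-fold higher (adjusted p = 0.185). Its second probe set passed over probe sets (log2 difference 0.55, adjusted p = 0.0478). Mybbp1a, a nucleolar protein first found as a partner of MYB, had 2211, 2591 and 2603 on the positive arrays, against 472, 743 and 1587 on the negative arrays. The negative arrays were spread widely, and the 2.99-fold difference did not pass (adjusted p = 0.0906). Without negative array 3 it did (adjusted p = 0.0253), as did its second probe set (log2 difference 1.73, adjusted p = 0.0299 over probe sets).

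Of the AAA ATPases, their partners and the enzymes of spacer cleavage, 1 of 6 was called higher, against 4.62% of all genes. Las1l, the endonuclease that cuts the second internal spacer, had 409, 428 and 361 on the positive arrays, against 164, 209 and 251 on the negative arrays and rose 1.95-fold (adjusted p = 0.0426), but did not pass under the block (adjusted p = 0.0642). Nol9, the kinase that works with it, had 406, 219.5 and 249 on the positive arrays, against 141, 165 and 232 on the negative arrays. These groups overlapped (adjusted p = 0.255). On the other bright probe sets of Nol9 the groups did not overlap, at log2 differences of 0.98 and 1.02. Neither passed (adjusted p = 0.182 and 0.0587 over probe sets). Mdn1, the very large ATPase midasin, was 1.91-fold and Nvl, a second ATPase, 1.35-fold higher without passing (adjusted p = 0.136 and 0.195). Wdr74, which works with the Nvl protein, had 571, 676 and 642 on the positive arrays, against 303, 431 and 227 on the negative arrays, without overlap (log2 difference 1.02, adjusted p = 0.0697). Nle1, a partner of midasin, had 253, 76.1 and 68.8 on the positive arrays, against 38.9, 32.1 and 42.6 on the negative arrays. Its negative values lay below the median over genes, and positive array 1 stood far above the other positive arrays, and the 2.92-fold difference did not pass (adjusted p = 0.14).

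Of the 3 measured factors of late maturation and export, 2 rose, against 4.62% of all genes, and Rsl24d1 did not pass. Pa2g4, which sits at the exit of the peptide tunnel and is also known as EBP1, had 7093, 7508 and 7687 on the positive arrays, against 3798, 3477 and 3694 on the negative arrays. The 3 arrays of each group were close together, and the rise was 2.03-fold (log2 difference 1.02, SE 0.12, adjusted p = 0.0148). All 4 other probe sets of Pa2g4 passed too, at log2 differences of 1.01 to 1.81. Nmd3, the adaptor for nuclear export, had 2084, 1901 and 1771 on the positive arrays, against 1042, 1098 and 1046 on the negative arrays and rose 1.80-fold (log2 difference 0.85, SE 0.12, adjusted p = 0.0223). Averaging all its probe sets, 2 of them dim, ended this call. Rsl24d1, which holds the place of a ribosomal protein until the cytoplasm, had 10211, 10184 and 10119.5 on the positive arrays, against 9505, 11374 and 9598 on the negative arrays. Its log2 difference was 0.0067 with a 95% interval of -0.31 to 0.32, which ended below that of Pa2g4, 0.74 to 1.31.

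**Figure D3:**
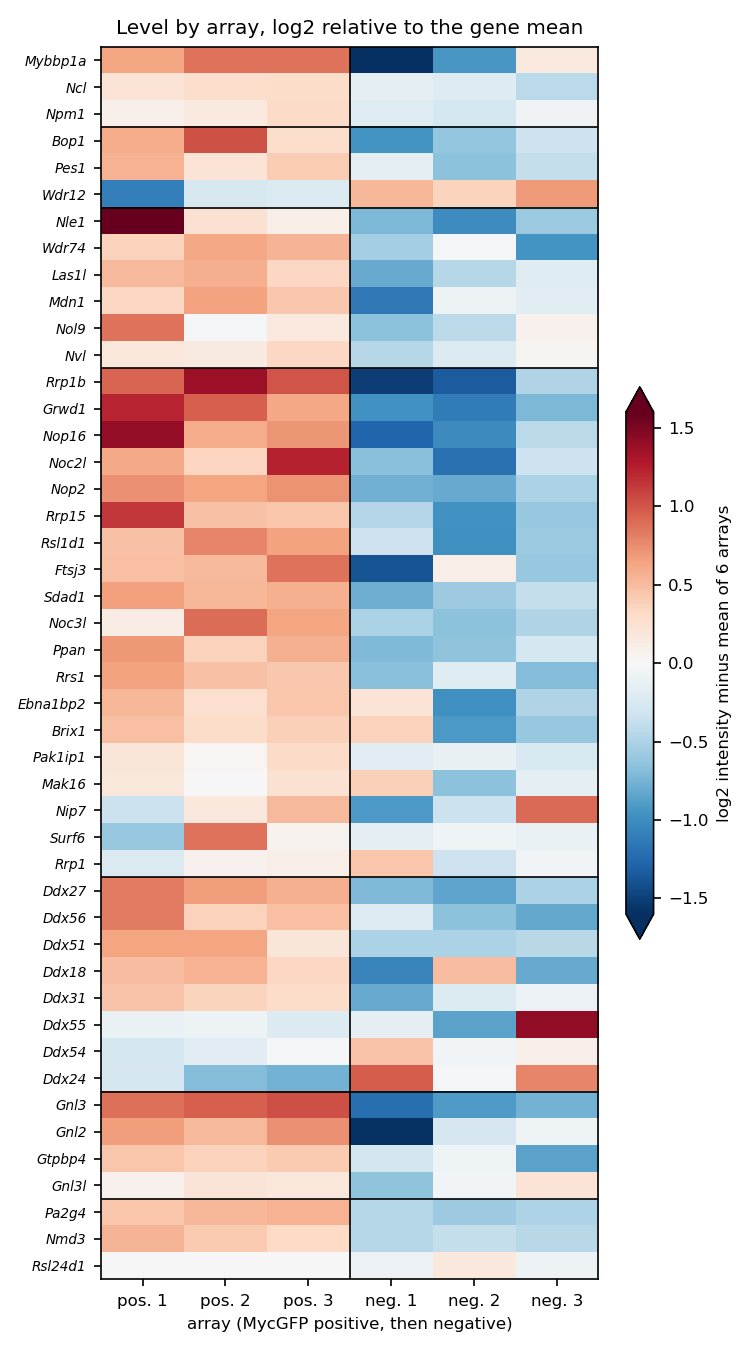
Log2 intensity of 46 assembly factors (rows, grouped by role and separated by lines) on each array (columns, 3 MycGFP positive left of 3 MycGFP negative), relative to the gene's mean over 6 arrays. Most rows are red on the positive and blue on the negative arrays, and Wdr12 and Ddx24 run the other way.

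Probe sets of a gene can differ, and 34 of the 46 genes had more than 1. Of their 55 other probe sets, 34 lay above the median over genes on every array, and 5 of those, 1 each of 5 genes, had a difference of opposite sign to the brightest. When all 34945 probe sets were tested, a choice made after seeing the data, 24 of the 46 genes had a probe set called higher and none had any called lower, against 6.85% and 3.22% of all genes. The 24 held all 18 genes called above and also Noc2l, Brix1, Gtpbp4, Mybbp1a, Nip7 and Npm1. Nip7, a small factor of RNA processing, gave the plainest disagreement. Its brightest probe set had 1898, 2700.0 and 3442 on the positive arrays, against 1271, 1884 and 4506 on the negative arrays, with overlapping groups (log2 difference 0.24, adjusted p = 0.849). The other had 1879, 1878 and 1597 on the positive arrays, against 538, 583 and 602 on the negative arrays, far apart, with a difference of 1.63 on the log2 scale (SE 0.14, adjusted p = 0.01 over probe sets). Brix1 behaved alike, since its brightest probe set had 2619.9, 2294 and 2442 on the positive arrays, against 2412, 988 and 1231 on the negative arrays, where negative array 1 reached the positive level. Its second had 1192, 1481 and 1508 on the positive arrays, against 419, 738 and 495 on the negative arrays (log2 difference 1.37, adjusted p = 0.0293 over probe sets).

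**Figure D4:**
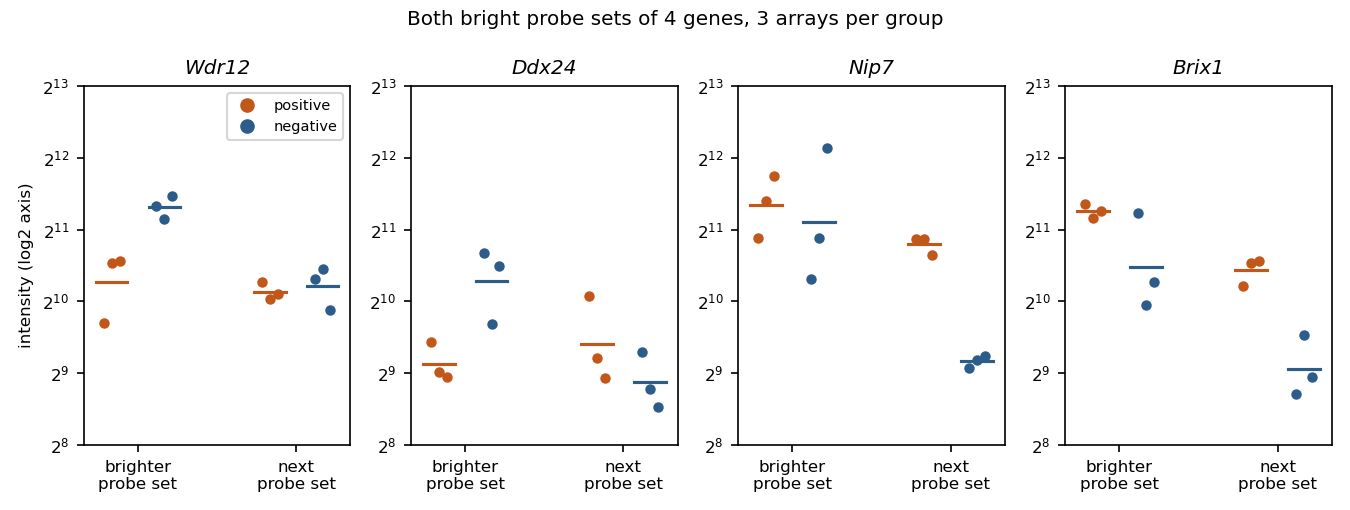
Intensity on a log2 axis (y) for the brightest and the next probe set of Wdr12, Ddx24, Nip7 and Brix1 on 3 MycGFP positive arrays (orange) and 3 MycGFP negative arrays (blue), with the geometric mean as a line. The groups are apart on the brighter probe set of Wdr12 and Ddx24 and overlap on the next, and the reverse holds for Nip7 and Brix1.

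A second list held 30 other genes of large subunit assembly. Of 28 measured, 6 were higher and none lower, or 21.4% higher, against 4.62% of all genes higher and 1.51% lower. An unadjusted p under 0.05 was reached by 14 higher and 1 lower, against 14.7% and 7.35% of all genes. The median log2 difference of the 28 was 0.62. Nifk, a nucleolar partner of the proliferation protein Ki-67, had 871, 943 and 998 on the positive arrays, against 329.9, 298 and 352 on the negative arrays and rose 2.87-fold (adjusted p = 0.0103). Ccdc86 rose 3.63-fold (adjusted p = 0.0119), Lsg1, a GTPase of the cytoplasmic steps, 1.93-fold (adjusted p = 0.0259) and Rpf1 1.56-fold (adjusted p = 0.0427, and 0.0683 under the block). The other called genes, outside the rule for names and named after their values were seen, were Tma16 and Zfp593, at 2.83-fold and 1.97-fold higher. The largest difference below 0 was that of Zfp622, at a log2 difference of -0.69 (adjusted p = 0.0845). None of the 28 was called without positive array 2, when no gene at all was. There was 1 call without positive array 3 and 1 without negative array 2, against 0.572% and 0.72% of all genes higher. There were 2 calls without positive array 1, against 0.956%, and 3 without negative array 3, against 3.22%. Without negative array 1 there were 4, against 4.74%.

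The arrays of a group did not carry the assembly factors at equal levels. As the mean over 46 genes of log2 intensity relative to each gene's own mean, the positive arrays 1, 2 and 3 lay at 0.44, 0.41 and 0.40 and the negative arrays at -0.51, -0.48 and -0.26. The range over the 3 arrays was wider among negative than among positive arrays for 33 of the 46 genes (71.7%), beside 57.0% of all genes. The median range was 0.27 on positive and 0.61 on negative arrays on the log2 scale. Negative array 3 had the highest negative value for 24 of the 46 genes, array 1 for 12 and array 2 for 10. This count was not made over all genes, so it is not a trait particular to the assembly factors. The mean level over all genes was -0.03, -0.07 and -0.03 on negative arrays 1, 2 and 3. Myc, the gene of the sort, had 2628, 3390.5 and 2274 on the positive arrays, against 801, 1135 and 1303 on the negative arrays, and was 2.58-fold higher (log2 difference 1.37, SE 0.24, adjusted p = 0.0329). That call was lost without any 1 of the 3 positive arrays or negative array 2 (adjusted p = 0.0786 to 0.108). Among the negative arrays both Myc and the assembly factors were highest on array 3 and lowest on array 1, in 3 arrays and with no test. The order was not shared throughout. Among the positive arrays Myc was highest on array 2 and the assembly factors on array 1, and both were lowest on array 3. The 28 measured genes of the second list were highest on negative array 1, where Myc was lowest.

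Genes of S phase and mitosis moved with the same sort. Of 24 on the list 23 were measured, and 9 were higher and none lower, against 4.62% and 1.51% of all genes. With the array number as a block 16 of the 23 were higher and none lower, against 5.75% and 1.95%. Their median log2 difference was 2.21. Their summed intensity was 58854 to 72017 on positive and 13583 to 39760 on negative arrays. Among the negative arrays they lay at 0.003, -1.30 and -1.88 on arrays 1, 2 and 3, so they were highest on array 1. The 46 assembly factors were instead lowest on array 1 and highest on array 3. The 28 measured genes of the second list lay at -0.15, -0.46 and -0.32, highest on array 1 as well. The 19 early factors lay at -0.52, -0.67 and -0.36, lowest on array 2. The part of cell cycle state in the differences of the assembly factors was not tested.

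**Figure D5:**
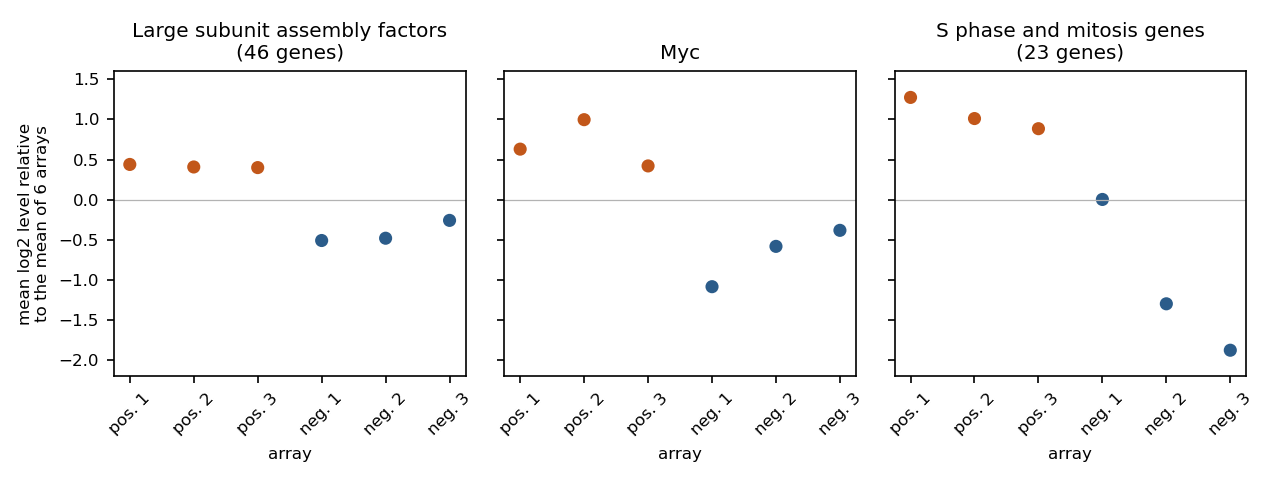
Mean log2 level relative to the mean of 6 arrays (y axis) on each array (x axis, 3 MycGFP positive in orange left of 3 MycGFP negative in blue) for 46 assembly factors, Myc, and 23 genes of S phase and mitosis. The assembly factors lie at 0.40 to 0.44 on the positive and -0.51 to -0.26 on the negative arrays, and the S phase and mitosis genes spread from 0.003 to -1.88 over the negative arrays.

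The cells carried T cell transcripts on every array. The 7 measured of 8 T cell markers summed to 51076 to 64243 on positive and 62056 to 70801 on negative arrays, and none was called. Of B cell, myeloid, erythroid and NK markers, 4 of 5, 6 of 6, 3 of 5 and 3 of 4 were measured and none was called in either direction. B cell markers summed to 96.7 to 443 on positive and 189.5 to 731 on negative arrays, and myeloid markers to 143 to 2125 on positive and 219 to 9760.2 on negative arrays. Erythroid markers summed to 40.8 to 53.2 on positive and 45.9 to 69.3 on negative arrays, and NK markers to 5648 to 7865 on positive and 4770.4 to 5252 on negative arrays. The highest myeloid sums came from S100a8 and S100a9 on the arrays numbered 2, and the NK sum was nearly all Gzma. Klrd1, a receptor of NK cells, had the opposite sign, with 92.5, 22.97 and 21.2 on the positive arrays, against 317, 101 and 255 on the negative arrays (log2 difference -2.50, adjusted p = 0.096). Its groups did not overlap, and it was named after its values were seen. No value was at 0 after RMA, and 1 B cell, 2 myeloid, 3 erythroid and 1 NK marker lay under the array median everywhere. The part of such cells in the results was not tested. The ratio of 3' to 5' control probe sets of Gapdh was 1.48 to 1.580 on positive and 1.582 to 1.89 on negative arrays. Every negative value of the Gapdh ratio thus lay above every positive one, though by little at the nearest pair. The actin ratio was 1.72 to 1.85 on positive and 1.54 to 1.87 on negative arrays, and there the groups overlapped. The part of RNA quality in the results was not tested.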

How the data were processed

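RNA of sorted leukaemia cells, 5 ng per sample, was amplified with the Ovation system and hybridised to Affymetrix arrays, per the labels' protocols. The deposited values are linear intensities per probe set, and RMA is the tool listed in the submitters' processing notes; its version is not stated. The test had been planned on log2 values, so intensities were first converted to log2. Because RMA equalises arrays, total RNA per cell cannot be read from them, and precision is limited by there being 3 arrays a group.

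Of 45101 probe sets, 64 controls were left out, 34945 had 1 gene symbol, 932 had several and 9160 had none. Symbols were updated by Entrez identifier through the RefSeq table of GRCm38.p6, where 34741 matched. The highest mean log2 value chose 1 probe set for each of 18193 genes. Titles gave the groups. The test was limma's (version 3.58.1, R 4.3.3, lmFit and eBayes without covariates), two-sided, with p-values adjusted after Benjamini-Hochberg over all 18193 genes at a threshold of 0.05, with 4 residual and 2.17 prior degrees of freedom. Folds are antilogs of log2 differences, and intensities of different probe sets are not compared as levels.

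The members, their roles and the other lists were chosen with earlier results of these data known, so no set test was made. The rule for named genes took every member, with all values for the PeBoW complex, the 2 smallest adjusted p of each role and every difference below 0, then Myc and the 4 called genes with the smallest adjusted p of the second list. Other members given with all values were chosen after these were seen.

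Arrays of the same number deviated together from their group means (r = 0.38, 0.21 and 0.39 across genes, and -0.32 to -0.03 for other pairs, a contrast that is partly built in). In the block alternative the numbers were therefore taken, as an assumption that no label states, to pair the arrays. The main test did not use this pairing. The series' design text names 3 independent leukaemias, but no label ties an array number to a leukaemia, so p-values measure the variation among these 3 arrays a group.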

Additional observations from a re-analysis of the deposited data

How the results depend on the processing

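The alternatives were the array number as a block, each array left out, the mean of all probe sets and arrays centred on their median. Others were a trended and robust variance, array weights, no probe sets ending in _x_at and only genes above the median level. Any probe set of a gene was added after seeing the data. No alternative called an assembly factor lower. Leaving out 1 array gave 0 to 14 genes higher among the 46 and 0 to 4 among the 28 other factors, against 18 and 6 with all arrays. The share of all genes called higher was 0% to 4.74% in these runs and 4.62% with all arrays. Centring gave 11 and 3, against 2.76% of all genes higher, with a median log2 difference of 0.80. The trended and robust variance gave 3 of the 28, against 3.86%. With the replicate block 16 of the 46 were higher, 14 of them among the 18, and 6 of the 28, with Spata5 in place of Rpf1. Beside the changes given for Bop1, Pes1, Nop16, Noc2l, Noc3l and Las1l, the block changed no call among the 46.

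Over 598 pairs of a gene and an alternative, 482 kept direction and side of the threshold, 91 lost and 14 gained a call, and 11, in 6 genes, changed sign. No gene with a changed sign was called. Averaging probe sets put Gnl3l at -0.048, centring put Rsl24d1 at -0.14, and array weights put Rrp1 at 0.037 and Rsl24d1 at -0.0098. Over the 6 left-out arrays Rrp1 ranged from -0.23 to 0.16, Ddx55 from -0.78 to 0.36, Nip7 from -0.16 to 0.75, Rsl24d1 from -0.039 to 0.091 and Surf6 from -0.17 to 0.57. The causes were not tested, and leaving out an array changed both how many arrays remained and which ones. The files used give no background level, so how far dim signals such as Nle1 on the negative arrays understate a fold was not measured.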
